A study of Homo sapiens with 6 samples.

Results

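Sterol and fatty acid synthesis was followed through 32 genes, taken by matching their symbols in the deposited expression tables, out of 17789 symbols listed in at least 1 library. They fall into 6 enzymes of the mevalonate steps, 10 enzymes of the late sterol steps, 4 regulators and transporters, and 12 enzymes of fatty acid synthesis, elongation, desaturation and activation. The data are RNA sequencing of A549, an established human non-small-cell lung cancer line, in 3 control libraries whose genotype is labelled wild type and 3 libraries labelled FOXD3 knockdown. FOXD3 is a forkhead transcription factor, and its transcript was the target of a SMART pool of siRNAs delivered with a lipid reagent; knockdown was checked at 72 h. Growth medium with serum is given for all samples, while the treatment of control wells is not described. Whether libraries of a group are separate cultures is not stated either, so every p-value reflects the spread of these libraries alone, which may be technical.

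Cells build cholesterol from acetyl-CoA through mevalonate, isoprenoid diphosphates, squalene and lanosterol, and build fatty acids from the same acetyl-CoA through malonyl-CoA. Most genes of these routes are targets of the transcription factors SREBP1 and SREBP2, encoded by SREBF1 and SREBF2, which are held in the endoplasmic reticulum by INSIG proteins when sterols are plentiful and are cut free when sterols run low. SREBP1 is known mainly for fatty acid genes and SREBP2 mainly for sterol genes, and both usually act beside the CCAAT-binding factor NF-Y.

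Because most genes of these routes are known targets of these factors, the members' promoters were read for 2 motifs, each on both strands. These were the sterol regulatory element, searched as TCACNCCAC, and the inverted CCAAT box of NF-Y, searched as ATTGG. Matches to the 2 motifs could share at most 1 end base, and in the 2 members that hold both they lie apart. RefSeq windows on GRCh38.p14, from 250 bases before to 50 after a start site, were found for 29 of the 32 members (42 windows). An inverted CCAAT box was present in 24 of the 29 members (82.8%), against 43.2% of 9249 tested genes with a window. Counted by window, it was in 27 of the 42 member windows, against 34.6% of all 35116 windows. The sterol regulatory element in this spelling was present in 2 of the 29 members (6.90%), SREBF2 and ACSL1, against 1.51% of the 9249 tested genes. By window it was in 2 of the 42 member windows, against 1.13% of all windows. Stretches upstream of the start site are shown for those 2 members and for 6 members whose transcripts fell in the knockdown libraries, 5′ to 3′ on the gene's strand, with every match in capitals (GTGGGGTGA and CCAAT are matches on the opposite strand).
SREBF2 (chr22:41832945-41833044, plus strand): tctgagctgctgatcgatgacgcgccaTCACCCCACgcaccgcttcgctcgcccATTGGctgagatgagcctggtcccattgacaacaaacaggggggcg
ACSL1 (chr4:184805724-184805803, minus strand): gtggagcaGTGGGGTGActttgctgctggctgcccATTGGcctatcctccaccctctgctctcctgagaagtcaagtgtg
INSIG1 (chr7:155297678-155297757, plus strand): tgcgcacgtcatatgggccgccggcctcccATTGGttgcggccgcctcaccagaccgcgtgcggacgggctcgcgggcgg
HMGCS1 (chr5:43313493-43313592, minus strand): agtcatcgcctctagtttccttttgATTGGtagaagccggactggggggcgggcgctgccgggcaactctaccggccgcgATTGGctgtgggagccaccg
FDPS (chr1:155308676-155308835, plus strand): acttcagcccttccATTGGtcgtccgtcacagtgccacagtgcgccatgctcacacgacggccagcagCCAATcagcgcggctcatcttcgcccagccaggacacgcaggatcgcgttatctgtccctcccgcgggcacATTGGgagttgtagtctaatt
MSMO1 (chr4:165327469-165327648, plus strand): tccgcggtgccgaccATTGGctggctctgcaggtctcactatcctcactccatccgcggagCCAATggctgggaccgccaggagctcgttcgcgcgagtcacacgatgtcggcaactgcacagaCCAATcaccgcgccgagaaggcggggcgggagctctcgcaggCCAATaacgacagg
SCD (chr10:100346983-100347082, plus strand): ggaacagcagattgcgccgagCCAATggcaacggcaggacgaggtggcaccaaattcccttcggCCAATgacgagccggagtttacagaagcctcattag
ACSS2 (chr20:34874829-34874928, plus strand): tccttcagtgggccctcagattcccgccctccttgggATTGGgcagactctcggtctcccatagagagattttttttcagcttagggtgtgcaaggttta
In SREBF2 the element began 133 bases before the start site and the inverted CCAAT box 106 bases before it. MSMO1 held 4 CCAAT boxes in either orientation, and SCD held 2. Repeated boxes were not limited to members that fell. In NSDHL, which rose, boxes began 228, 138, 113, 110 and 84 bases before the start site. In EBP, whose groups overlapped, boxes began 191, 70 and 30 bases before it. By the test described below, CCAAT boxes were present in 16 of 18 lower members, 6 of 7 tested members without a call and 1 of 3 higher members, and in STARD4, which was not tested. A match is a run of letters, not a measured binding site, and no match in a window says only that these letters are not there.

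**Figure D1:**
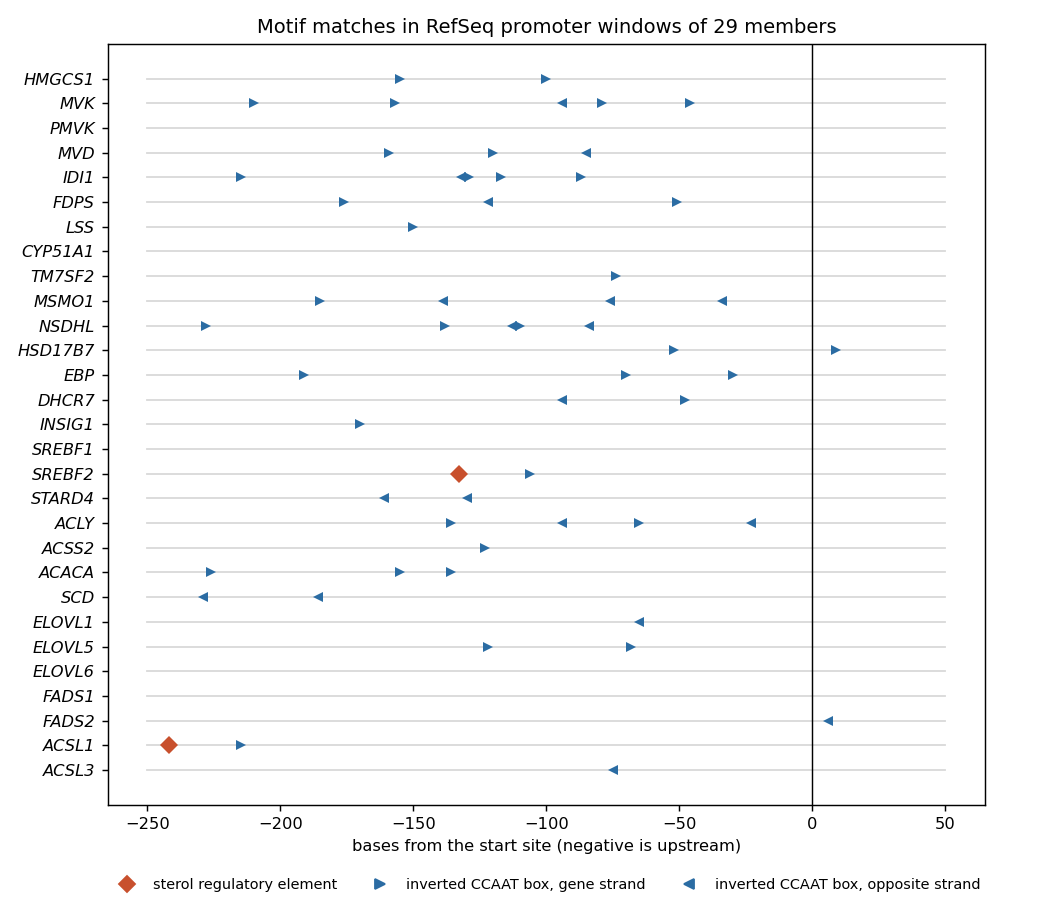
Motif matches along the promoter windows of the 29 members with a RefSeq window, in bases from the start site (x axis, negative is upstream; members with several windows have all matches drawn on 1 line). Diamonds mark the sterol regulatory element, found in SREBF2 and ACSL1, and triangles mark inverted CCAAT boxes pointing along or against the gene, found in 24 members.

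The values are FPKM, fragments per kilobase of transcript scaled to the mapped fragments of the library, so levels can be compared between genes. The files hold no counts. The FPKM worth of a single fragment in long intronless genes put the depth roughly at 6440000 to 7910000 fragments per library, an estimate that rests on 4 to 8 genes per library and cannot leave the window of 5000000 to 12000000 fragments that was read. FOXD3 itself was near the detection limit, with control values of 0.152, 0.291 and 0.134 FPKM, 0.0749 FPKM in knockdown replicate 2 and no entry for the other two knockdown libraries. An exact permutation test (two-sided) returned p = 0.1, the lowest value possible with 3 libraries against 3, and how far FOXD3 fell cannot be sized at this depth. Keratins and adhesion molecules of epithelial carcinoma cells (KRT8, KRT18, KRT19, EPCAM and CDH1) were listed in every library and summed to 5051 to 6021 FPKM in control and 7215 to 7277 in knockdown libraries. Markers of leukocytes, fibroblasts and endothelium (14 genes, 13 of them listed in at least 1 library) summed to at most 4.56 FPKM per list in any library, and of 4 genes of liver and fat ALB, ADIPOQ and LEP were listed in none and APOA1 stood at 0.149 FPKM in control replicates 1 and 2 alone. In bulk libraries, fewer cells of a type and less RNA per cell cannot be told apart.

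Most of these genes were lower in the knockdown libraries. Of the 31 members that passed a filter of 0.5 FPKM on the mean over the 6 libraries, 20 were called lower and 3 higher. Of all 13340 tested genes 37.9% were called lower, 25.6% higher and 63.5% in either direction. A call here is a Benjamini-Hochberg adjusted p under 0.05 in limma on log2(FPKM + 1), adjusted over all tested genes, and a log2 change is knockdown minus control on that scale. Of the 31, 13 were called lower with a log2 change of -0.5 or below, where 20.8% of all tested genes were, and 1 was called higher with a change of at least 0.5 (10.7%). The median log2 change was -0.38 over the members and -0.087 over all tested genes. All 3 control values lay above all 3 knockdown values in 23 of the 31 (40.8% of all tested genes), and below them in 4 (28.3%); the groups did not overlap in 69.1% of all tested genes. The libraries also differed by group in other ways: small nucleolar RNAs held 0.975% to 1.53% of the FPKM total in control libraries and 1.82% to 1.92% in knockdown replicates 1 and 3, with knockdown replicate 2 apart at 4.83%. Symbols above 0 numbered 16229 to 16288 in control and 15651 to 15754 in knockdown libraries, and the part of either in the members' changes was not tested. Without knockdown replicate 2, limma called 20 members lower (64.5%, against 33.8% of all tested genes) and 2 higher (6.45%, against 22.4%), PMVK being lost. Dividing each library by its median moved the median of all tested genes by 0.11, to 0.023, and their split of calls from 3417 higher and 5050 lower (40.4% higher) to 4539 higher and 3928 lower (53.6%). With that scaling 15 members were lower (48.4%, against 29.5% of all tested genes) and 4 higher (12.9%, against 34.1%). The members' median minus that of all genes was then -0.28, against -0.30 as deposited. Quantile normalization called 21 members lower (67.7%, against 29.3% of all tested genes) and 3 higher (9.68%, against 32.3%).

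**Figure D2:**
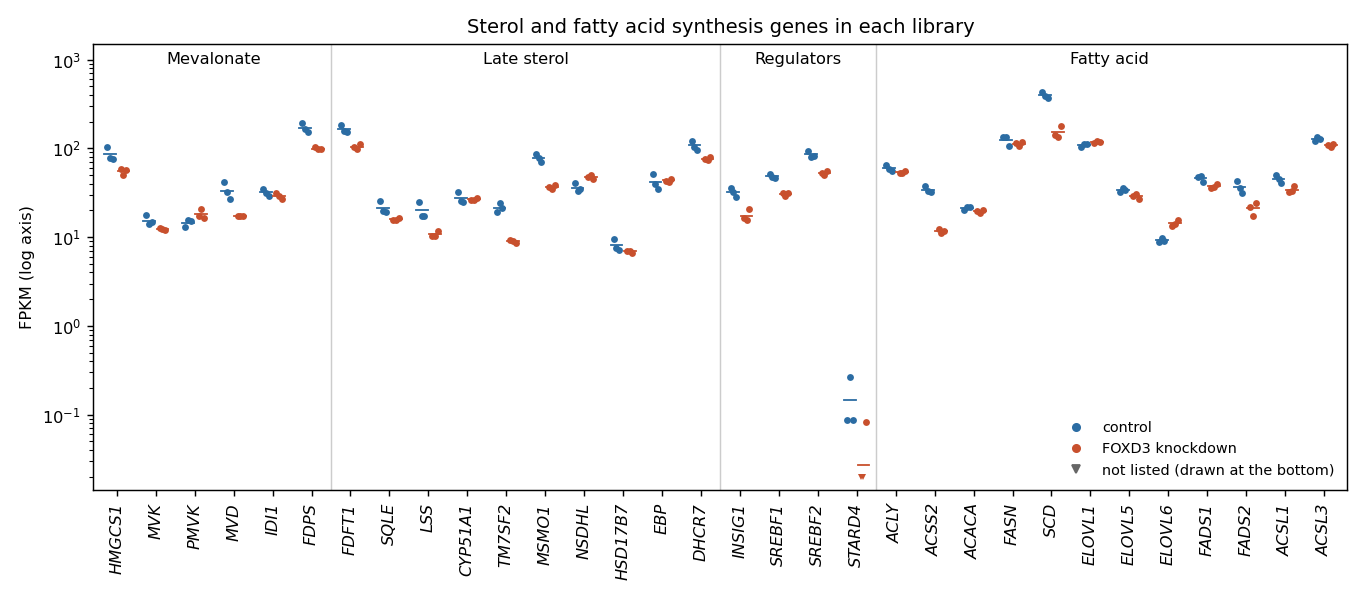
FPKM of each of the 32 members (y axis, log scale) in the 3 control and 3 knockdown libraries, grouped by step; each point is a library and each short line a group mean. SCD was the most abundant member in both groups (395 and 151 FPKM), and STARD4 was under 0.5 FPKM in every library.

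The transcripts of the 2 transcription factors and of the retention protein INSIG1 all fell. SREBF2 (Entrez 6721, chromosome 22, 42229106 to 42302375, hg19), whose promoter holds the element shown above, had 93.9, 80.7 and 82.3 FPKM in control and 53.3, 50.2 and 55.5 FPKM in knockdown libraries, given here and below in the order of replicates 1, 2 and 3. Every control library was above every knockdown library, and the log2 change was -0.68 (SE 0.068; limma adjusted p = 5.88e-05). SREBF1 (Entrez 6720, chromosome 17, 17714663 to 17740325, hg19), whose locus overlaps that of RAI1 in the tables, had 50.9, 48.2 and 46.3 FPKM in control and 31.6, 29.1 and 31.3 in knockdown libraries. Its groups did not overlap either, and it changed by -0.64 (SE 0.056; limma adjusted p = 2.98e-05). The ratio of SREBF2 to SREBF1 FPKM ran from 1.67 to 1.85 in control and from 1.69 to 1.77 in knockdown libraries, so the 2 ranges overlapped.

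INSIG1, which retains the SREBP precursors in the endoplasmic reticulum and is itself an SREBP target, fell by 0.84 on the log2 scale. It stood at 36.2, 31.9 and 28.1 FPKM in control and at 16.3, 15.6 and 20.5 in knockdown libraries (Entrez 3638, chromosome 7, 155089486 to 155101945, hg19; SE 0.118, limma adjusted p = 0.000388). The lowest control value was well above the highest knockdown value, which was that of replicate 3. STARD4, a cytosolic sterol carrier, was barely expressed, at 0.0864, 0.265 and 0.0872 FPKM in control and 0.0822 in knockdown replicate 3, and was not listed in knockdown replicates 1 and 2. It passed no filter and was tested only without one, where its limma adjusted p was 0.123.

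In the mevalonate steps, 4 of 6 enzymes fell (66.7%, against 37.9% of all tested genes) and 1 rose (16.7%, against 25.6%). The median log2 change was -0.46. HMGCS1, the cytosolic HMG-CoA synthase that opens the route (Entrez 3157, chromosome 5, 43289493 to 43313595, hg19), had 103, 77.5 and 76.1 FPKM in control and 58.6, 49.9 and 56.3 in knockdown libraries. Control replicate 1 stood apart from the other two controls, yet all 3 were above the knockdown libraries, and the change was -0.62 (SE 0.115; limma adjusted p = 0.00184). MVD, mevalonate diphosphate decarboxylase (Entrez 4597, chromosome 16, 88718348 to 88729495, hg19), showed the largest fall of these steps. Its control values of 41.3, 31.9 and 26.6 FPKM were widely spread, while the knockdown values of 17.5, 17.2 and 17.2 were nearly the same. The log2 change was -0.88 (SE 0.134; limma adjusted p = 0.00059).

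FDPS, farnesyl diphosphate synthase and the branch point towards sterols, dolichol, ubiquinone and protein prenylation, was the most abundant enzyme of these steps. It had 196, 166 and 151 FPKM in control and 103, 97.1 and 99.1 in knockdown libraries, with a change of -0.76 (SE 0.086; limma adjusted p = 0.000113). FDPS (Entrez 2224, chromosome 1, 155278539 to 155290457, hg19) has 8 annotated pseudogenes in GENCODE 29 and overlaps RUSC1-AS1 in the tables, so its value depends on how shared fragments were assigned. Of the kinases of the route, MVK, mevalonate kinase, was modestly lower (15.4 ± 1.93 against 12.3 ± 0.336 FPKM, mean ± SD, n = 3 each; limma adjusted p = 0.0164), and its call was lost after median scaling (adjusted p = 0.139), after quantile normalization (0.0551) and without knockdown replicate 3 (0.0519). PMVK, phosphomevalonate kinase, went the other way, from 14.5 ± 1.36 to 18.1 ± 2.11 FPKM (limma adjusted p = 0.026), a call that was lost without control replicate 1 (0.0687), without knockdown replicate 2 (0.0861) and without a filter (0.0509). IDI1, the isopentenyl diphosphate isomerase, stood at 31.9 ± 2.74 and 29.2 ± 2.45 FPKM with overlapping groups, a log2 change of -0.12 with a 95% interval of -0.31 to 0.06.

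The late sterol steps, from squalene to cholesterol, held 6 lower and 1 higher of 10 enzymes, with a median log2 change of -0.44. These are shares of 60% and 10%, against 37.9% and 25.6% of all tested genes. FDFT1, squalene synthase, which commits farnesyl diphosphate to sterols (Entrez 2222, chromosome 8, 11660190 to 11696818, hg19), had control values of 184, 157 and 152 FPKM and 103, 98.6 and 111 in knockdown libraries. The groups did not overlap, with a change of -0.65 (SE 0.077; limma adjusted p = 0.000143). SQLE, squalene epoxidase, a rate-limiting step, was lower by a smaller margin, 21.4 ± 3.52 against 15.8 ± 0.49 FPKM (limma adjusted p = 0.00843, and 0.0538 after median scaling). LSS, lanosterol synthase (Entrez 4047, chromosome 21, 47608360 to 47648738, hg19), had 25.0, 17.5 and 17.5 FPKM in control and 10.3, 10.2 and 11.7 in knockdown libraries. Control replicate 1 was again the high library, and the change was -0.83 (SE 0.132; limma adjusted p = 0.000802).

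The largest falls of the sterol enzymes were those of TM7SF2 and MSMO1, which act after lanosterol. TM7SF2, a sterol C14-reductase whose activity the lamin B receptor also carries (Entrez 7108, chromosome 11, 64879341 to 64883707, hg19), had control values of 19.2, 24.1 and 21.2 FPKM and 9.34, 9.16 and 8.59 in knockdown libraries. Here control replicate 1 was the lowest control, and still above every knockdown library; the change was -1.16 (SE 0.085; limma adjusted p = 1.25e-05). MSMO1, the methylsterol monooxygenase that removes the C4 methyl groups (Entrez 6307, chromosome 4, 166248818 to 166264314, hg19), had 85.6, 78.7 and 70.1 FPKM in control and 37.0, 34.9 and 38.5 in knockdown libraries. It was 2.12-fold lower by mean FPKM, with a log2 change of -1.06 (SE 0.075; limma adjusted p = 1.07e-05).

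The remaining late enzymes did not move as a block. DHCR7, which makes cholesterol from 7-dehydrocholesterol, went from 108 ± 12.9 to 76.9 ± 2.85 FPKM (limma adjusted p = 0.00103). NSDHL, the dehydrogenase that works with MSMO1 in C4 demethylation, rose from 36.1 ± 3.83 to 47.5 ± 1.94 FPKM, with all knockdown libraries above all controls (log2 change 0.39, SE 0.076; limma adjusted p = 0.0022). CYP51A1, lanosterol demethylase, stood at 27.5 ± 4.26 and 26.7 ± 0.823 FPKM, HSD17B7, a 3-ketosterol reductase, at 8.06 ± 1.32 and 6.92 ± 0.184, and EBP, the sterol isomerase, at 42.1 ± 8.77 and 43.6 ± 1.89; none of these 3 passed the test. CYP51A1 and HSD17B7 have 3 and 2 annotated pseudogenes in GENCODE 29, so their values are uncertain. The wide control spread of EBP came from control replicate 1, at 51.9 FPKM against 39.7 and 34.8. Without that library EBP passed the test as higher (log2 change 0.22; limma adjusted p = 0.0224).

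**Figure D3:**
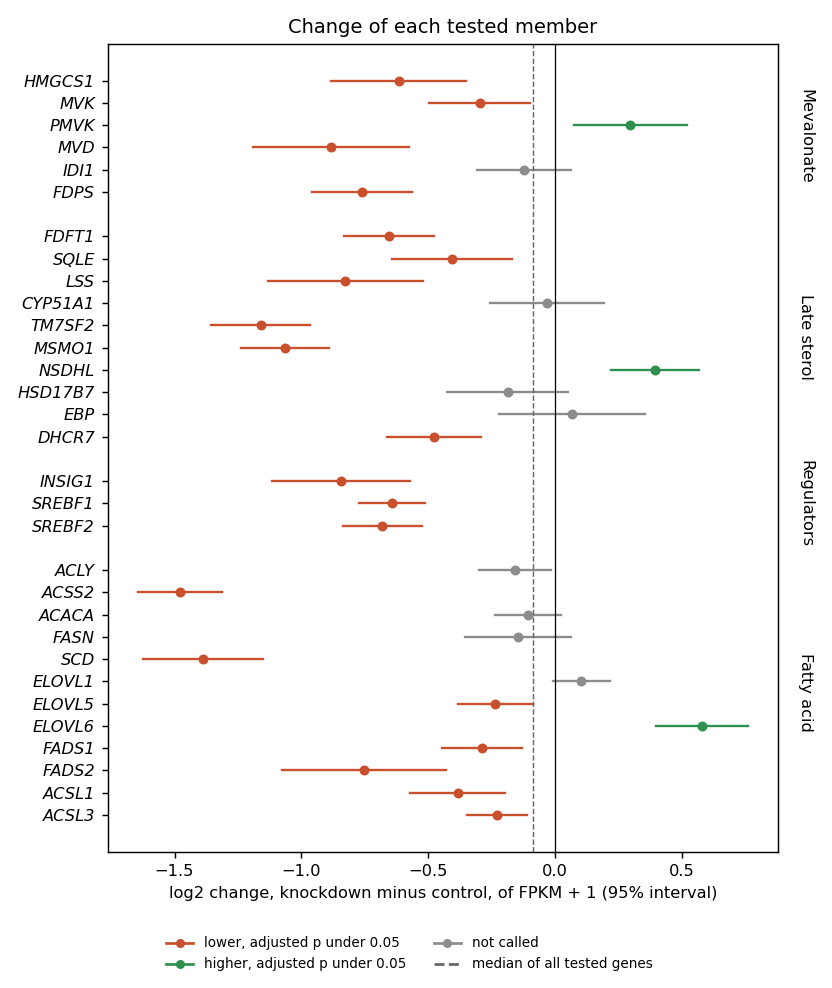
Log2 change of each of the 31 tested members (x axis, knockdown minus control of log2(FPKM + 1)) with its 95% interval from limma, coloured by call; the dashed line is the median of all tested genes. ACSS2, SCD, TM7SF2 and MSMO1 lie below -1, and PMVK, NSDHL and ELOVL6 are the 3 called higher.

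Control replicate 1 was the highest of the 3 controls in 23 of the 31 tested members (74.2%), against 34.1% of all tested genes, and in 14 of the 16 sterol enzymes. Control replicate 3 was the lowest control in 21 members (67.7%, against 30.2% of all tested genes). With control replicate 1 left out, limma still called 20 members lower (64.5%, against 38.1% of all tested genes) and 3 higher (9.68%, against 25.6%). PMVK was then no longer among the higher members and EBP was. The members' median minus that of all genes was then -0.18, against -0.30 with all libraries, and the median itself moved from -0.38 to -0.28. The part that this library plays in the members' changes was not tested beyond these values.

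**Figure D4:**
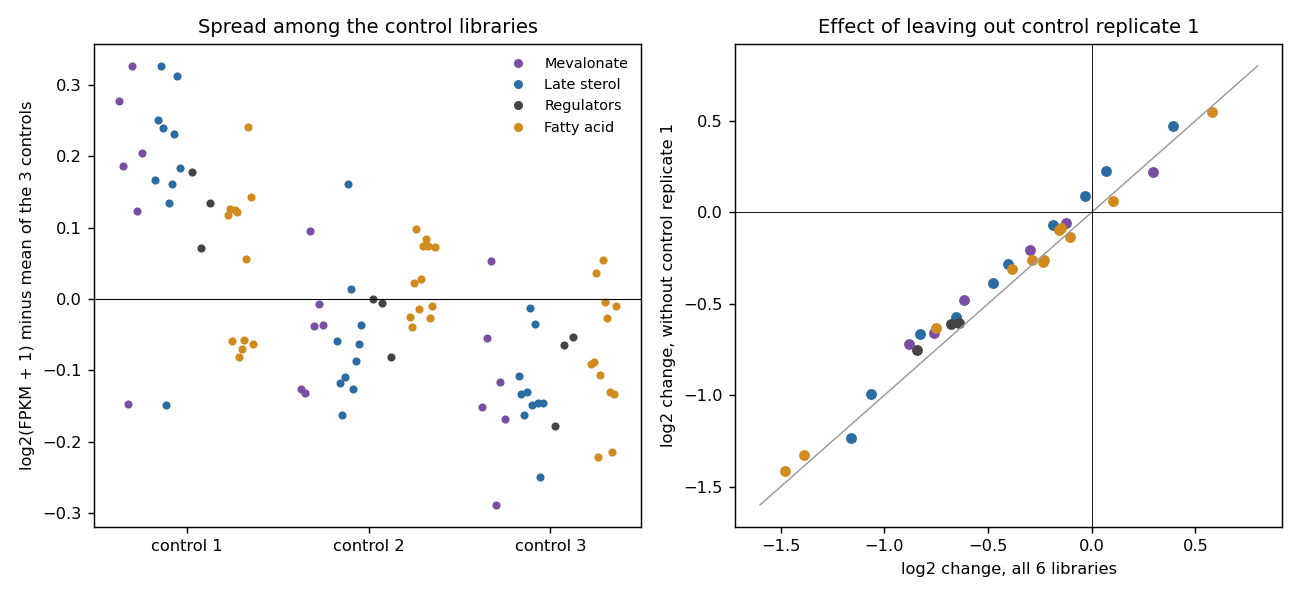
Left, each tested member's log2(FPKM + 1) in the 3 control libraries minus its mean over them, coloured by step; right, its log2 change with all 6 libraries (x axis) against that without control replicate 1 (y axis), with the line of equality. Control replicate 1 holds the highest values for 23 of 31 members, and 24 of the 31 points on the right lie above the line.

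In fatty acid synthesis, ACSS2 and the desaturases SCD, FADS1 and FADS2 fell and ELOVL6 rose, while ACLY, ACACA and FASN did not pass the test. Over the 12 members 7 were lower (58.3%, against 37.9% of all tested genes) and 1 higher (8.33%, against 25.6%). The median log2 change was -0.23. After median scaling 4 were lower (33.3%), a share near the 29.5% of all tested genes, and 2 higher (16.7%, against 34.1%). The median was then -0.10, against 0.023 for all tested genes. Quantile normalization moved the counts the other way, to 9 lower (75%, against 29.3% of all tested genes) and 1 higher (8.33%, against 32.3%). The median after it was -0.30, against 0.025 for all tested genes. ACSS2, the cytosolic enzyme that makes acetyl-CoA from acetate (Entrez 55902, chromosome 20, 33462766 to 33515769, hg19), showed the largest fall of all members. It stood at 37.5, 33.4 and 32.2 FPKM in control and at 12.3, 11.0 and 11.7 in knockdown libraries. The lowest control was well above the highest knockdown library, for a 2.94-fold lower mean and a log2 change of -1.48 (SE 0.072; limma adjusted p = 2.01e-06).

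ACLY, which makes acetyl-CoA from citrate, stood at 60.2 ± 4.59 and 53.7 ± 1.85 FPKM, a log2 change of -0.16 just outside the threshold (limma adjusted p = 0.0507). It was called lower after quantile normalization (0.00636), with robust estimation (0.0448) and without control replicate 3 (0.0251). The ratio of ACLY to ACSS2 FPKM ran from 1.74 to 1.77 in control and from 4.27 to 4.80 in knockdown libraries. ACACA, acetyl-CoA carboxylase, which makes malonyl-CoA, stood at 21.3 ± 0.786 and 19.7 ± 0.753 FPKM (95% interval of the log2 change -0.24 to 0.02). FASN, fatty acid synthase, stood at 125 ± 16.2 and 112 ± 5.78 (-0.36 to 0.06); it was called lower after quantile normalization (limma adjusted p = 0.0389) and without control replicate 3 (0.00584).

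SCD, the stearoyl-CoA desaturase that makes oleate and palmitoleate, was the most abundant member in both groups. It had 429, 390 and 366 FPKM in control and 142, 134 and 177 in knockdown libraries (Entrez 6319, chromosome 10, 102106772 to 102124588, hg19). Its mean was 2.61-fold lower, with a log2 change of -1.39 (SE 0.102; limma adjusted p = 1.28e-05). SCD took 18.8% to 19.0% of the FPKM summed over the 32 members in control libraries and 9.81% to 11.9% in knockdown libraries. It has 1 annotated pseudogene, and its paralog SCD5, which is not a member, fell as well.

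The front-end desaturases FADS2 and FADS1, which lie side by side on chromosome 11 and make polyunsaturated fatty acids, were both lower. FADS2 (Entrez 9415, 61595713 to 61634825, hg19) had control values of 42.9, 35.5 and 31.1 FPKM and 21.8, 17.5 and 24.5 in knockdown libraries. Both groups were spread and did not overlap, and the change was -0.75 (SE 0.140; limma adjusted p = 0.00182). FADS1 went from 46.1 ± 3.61 to 37.5 ± 1.97 FPKM (limma adjusted p = 0.00617, and 0.0806 after median scaling).

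Elongases were mixed. ELOVL6, which extends palmitate to stearate, the substrate of SCD, rose (Entrez 79071, chromosome 4, 110970229 to 111119820, hg19). It had 8.84, 9.86 and 9.06 FPKM in control and 13.3, 13.97 and 15.7 in knockdown libraries. Every knockdown library was above every control, with a log2 change of 0.58 (SE 0.079; limma adjusted p = 0.000332). The ratio of ELOVL6 to SCD FPKM was 0.0206 to 0.0253 in control and 0.0890 to 0.104 in knockdown libraries. ELOVL5, an elongase of polyunsaturated chains, was lower (34.2 ± 1.76 against 28.9 ± 1.87 FPKM; limma adjusted p = 0.012, and 0.17 after median scaling), and ELOVL1, an elongase of very long saturated chains, stood at 109 ± 5.42 and 117 ± 2.98. ELOVL1 did not pass as deposited (limma adjusted p = 0.0913), was called higher after median scaling (0.00289) and had a log2 change of -0.00074 after quantile normalization. Of the long-chain acyl-CoA synthetases, ACSL1 went from 45.1 ± 4.43 to 34.3 ± 2.58 FPKM (limma adjusted p = 0.00357) and ACSL3 from 128 ± 6.10 to 109 ± 4.70 (limma adjusted p = 0.00468, and 0.0999 after median scaling).

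The authors' deposited table, which gives 1 value per group, lists 31 of the members, and 9 had a false discovery rate under 0.05 in it, where 22.1% of its 12275 genes did. Lower in the authors' deposited table were ACSS2, SCD, MSMO1, INSIG1, MVD, LSS, HMGCS1 and FDPS, and ELOVL6 was higher. The other members called lower by limma did not reach 0.05 there. Among them, SREBF2 had a false discovery rate of 0.072, SREBF1 0.193, FDFT1 0.0527, FADS2 0.292 and DHCR7 0.24. Of the members called higher by limma, NSDHL (0.0859) and PMVK (0.227) did not reach 0.05 there either. For ACSS2, SCD and MSMO1 the authors' deposited table gives log2 changes of -1.45, -1.29 and -1.03, each at its smallest p-value of 5e-05, which 850 genes share. TM7SF2 has a log2 change of -1.09 in the authors' deposited table with a false discovery rate of 0.28, and its locus there runs wider than in the library tables. HMGCS1 stands at 55.5 and 37.4 FPKM in the authors' deposited table, lower than the 85.4 and 55.0 of the library tables, with a log2 change of -0.57.

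Other genes of these routes were read from lists chosen for their role. Among 14 tested genes of the remaining sterol and isoprenoid steps 6 were higher (42.9%, against 25.6% of all tested genes) and 3 lower (21.4%, against 37.9%), with a median log2 change of 0.15. FNTB, the beta subunit of protein farnesyltransferase, rose from 2.41 ± 0.315 to 5.93 ± 0.507 FPKM (limma adjusted p = 5.66e-05), and PDSS1, which makes the ubiquinone side chain, from 2.69 ± 0.305 to 5.45 ± 0.554. Among 10 genes of SREBP processing 4 were lower (40%, near the 37.9% of all tested genes) and 1 higher (10%, against 25.6%). The median was -0.11 against -0.087. The largest changes in this list were those of INSIG2 (30.1 ± 1.02 to 20.5 ± 0.616 FPKM) and the site-2 protease MBTPS2 (12.4 ± 1.00 to 8.31 ± 0.628), followed by ERLIN2. SCAP, the SREBP escort protein, named after its values were seen, stood between 19.7 and 22.1 FPKM in all 6 libraries and did not pass the test.

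Among 17 tested genes of sterol uptake, storage and efflux 11 were lower (64.7%, against 37.9% of all tested genes) and 4 higher (23.5%, against 25.6%), with a median log2 change of -0.33. ABCG1, a sterol exporter and target of the oxysterol receptor LXR, fell from 2.80 ± 0.603 to 0.202 ± 0.0765 FPKM (log2 change -1.65, and -3.28 with a pseudocount of 0.1 in place of 1; limma adjusted p = 2.65e-05), and the lipoprotein receptor VLDLR from 4.08 ± 0.566 to 2.03 ± 0.424. LRP8, a related receptor, rose from 22.2 ± 0.949 to 44.0 ± 0.504 (limma adjusted p = 2.81e-06). Among 21 tested genes that complete fatty acid synthesis and elongation 8 were lower (38.1%) and 3 higher (14.3%), with a median of -0.085, against -0.087 for all tested genes. The largest changes there were falls of FADS3, a desaturase beside FADS1 and FADS2 (31.4 ± 1.01 to 16.4 ± 1.73 FPKM), and of the elongases ELOVL7 (6.64 ± 0.698 to 3.17 ± 0.179) and ELOVL2 (2.25 ± 0.133 to 0.817 ± 0.268).

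**Figure D5:**
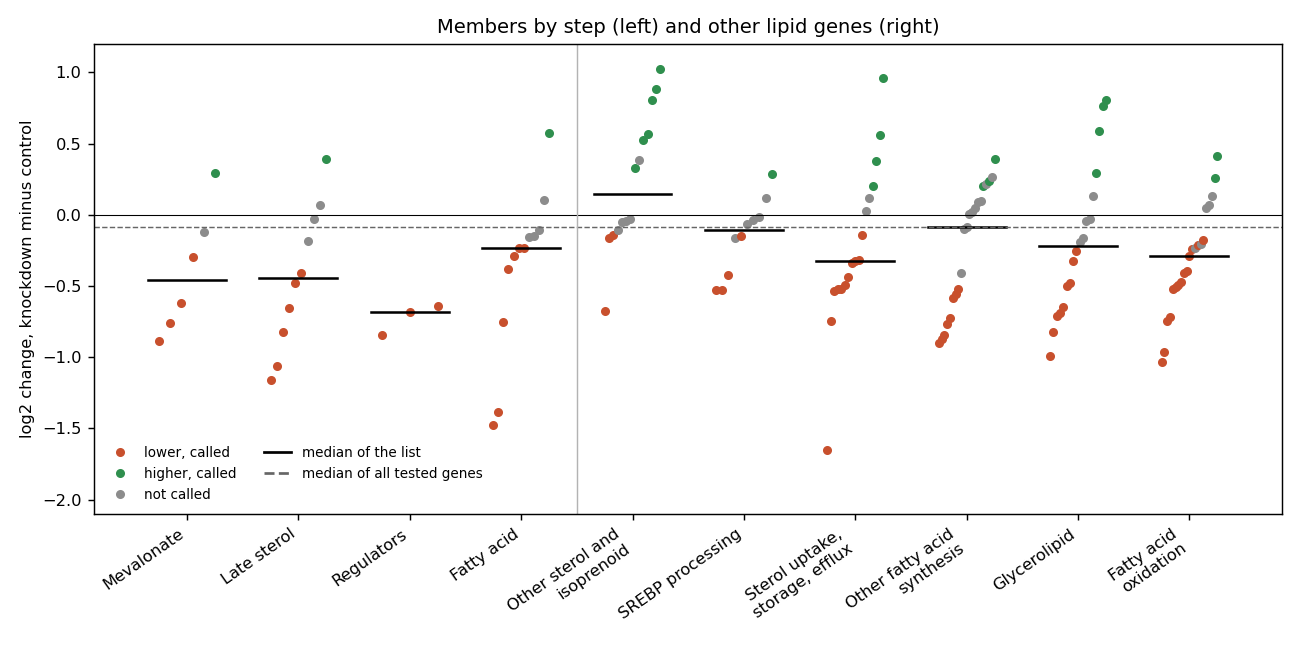
Log2 change of each tested gene (y axis) in the 4 groups of members (left) and in 6 lists of other lipid genes (right), coloured by call, with the median of each list as a black line and that of all tested genes dashed. The mevalonate, late sterol and regulator medians are at -0.46, -0.44 and -0.68, and that of the other sterol and isoprenoid genes is at 0.15.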

How the data were processed

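Per the file headers, each library's deposited table gives FPKM by gene, and the authors' comparison table gives FPKM per group, a log2 fold change (knockdown over control, as recomputed from its FPKM columns), p-values and false discovery rates. The submitters' processing notes list TopHat2 2.0.12, Bowtie, Cufflinks 2.0.2, Cuffdiff and hg19 without saying what each did; annotation and strand setting were not given in the sources used here, so overlapping genes cannot be separated. FPKM was summed over rows of a symbol (each member has 1 row), and unlisted symbols were set to 0. Log2 changes of genes near 1 FPKM or below depend on the pseudocount. Starts of loci were written 1-based. Genes averaging 0.5 FPKM or more were tested as log2(FPKM + 1) with limma 3.58.1 in R 4.3.3 (trend, two-sided, Benjamini-Hochberg), without covariates, after a check on simulated data. Alternatives were pseudocounts of 0.1 and 0.5, no filter or 5 FPKM, median scaling, quantile normalization, 2 eBayes settings, the highest row of a symbol, and each library left out. Promoter windows came from RefSeq (GRCh38.p14) and were matched by symbol. Members, lists and motifs were chosen with earlier results of these data known. Per-library values were given for members called with a log2 change of at least 0.5 in size and for SREBF1, SREBF2 and INSIG1, and up to 3 called genes with the largest changes and at least 1 FPKM were named from each related list; some genes are not reported here. The depth window and the minimum gene length of 2500 bases followed an earlier look at the values.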

Additional observations from a re-analysis of the deposited data

How the results depend on the processing

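Among the 31 tested members, 15 of the 20 lower calls and 2 of the 3 higher calls (NSDHL and ELOVL6) held in all 16 settings. Median scaling moved the median log2 change to -0.25 for all members, -0.10 for fatty acid genes and -0.55 for the regulators. The fatty acid genes then held 4 lower (33.3%, against 29.5% of all tested genes) and 2 higher (16.7%, against 34.1%). With quantile normalization they held 9 lower (75%, against 29.3%) and 1 higher (8.33%, against 32.3%). Median scaling also turned IDI1 to 0.0063, CYP51A1 to 0.096 and ACACA to 0.019, while quantile normalization turned ELOVL1 to -0.00074. The median of all tested genes was -0.10 with a pseudocount of 0.1, -0.054 with no filter, -0.019 with a filter of 5 FPKM (3295 genes lower), 0.023 with median scaling and 0.025 with quantile normalization. Without a filter no mevalonate gene was called higher (0, against 18.5% of all tested genes). With each library left out in turn, the calls over all tested genes ran from 2961 to 3406 higher (22.1% to 25.6%) and 4519 to 5063 lower (33.8% to 38.1%). Their median ran from -0.10 to -0.079. Members called lower ran from 19 to 22 (61.3% to 71.0%) and higher from 2 to 3 (6.45% to 9.68%), with a median of -0.45 to -0.28. Mevalonate genes ran from 3 to 4 lower and 0 to 1 higher (median -0.52 to -0.34), and late sterol genes had 6 lower and 1 to 2 higher (median -0.51 to -0.33). Fatty acid genes ran from 7 to 9 lower with 1 higher (median -0.26 to -0.20), and the regulators kept 3 lower (median -0.72 to -0.61). Without control replicate 1 CYP51A1 turned to 0.088 and EBP was called higher at 0.22; EBP turned to -0.058 without control replicate 3. The difference in FOXD3 ran from -0.196 to -0.118 FPKM. No paired analysis was possible because the labels give no replicate numbers; those used here only name libraries, in accession order, and pair nothing. The depth, known only by estimate, limits FOXD3 and STARD4, both under 0.5 FPKM in every library.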

Other observations

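In the list of fatty acid oxidation 14 of 21 tested genes were lower (66.7%, against 37.9% of all tested genes) and 2 higher (9.52%, against 25.6%), with a median log2 change of -0.29 against -0.087. CPT1B, a carnitine palmitoyltransferase that shares a read-through transcript with its neighbour CHKB, went from 8.44 ± 0.168 to 3.63 ± 0.321 FPKM (n = 3 each; limma adjusted p = 1.57e-05), ACADS, the short-chain acyl-CoA dehydrogenase, from 7.47 ± 0.585 to 3.35 ± 0.309, and PPARA, the nuclear receptor of fatty acid catabolism, from 6.67 ± 0.427 to 3.58 ± 0.249. In the glycerolipid list 9 of 18 tested genes were lower (50%, against 37.9%) and 4 higher (22.2%, against 25.6%), with a median of -0.22. The acyltransferases of this list parted: AGPAT4 went from 1.86 ± 0.110 to 0.441 ± 0.0885 FPKM (log2 change -0.99, and -1.87 with a pseudocount of 0.1) and DGAT1, which makes triglyceride, from 17.2 ± 1.38 to 9.29 ± 0.820, while AGPAT5 went from 6.60 ± 0.640 to 12.3 ± 0.776.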
